A study of Mus musculus with 30 samples.

Results

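The genes described here are 10 members of the BCL2 family, or genes named for binding to it, that promote cell death or remove mitochondria. They are Bax, Bak1, Bok, Bid, Bcl2l11, Bmf, Bad, Bik, Bnip3 and Bnip3l. They were chosen by name among the 55401 genes of a count table, and read in all 30 libraries. Every library came from a mouse B-cell lymphoma line labelled Eµ-Myc; p19ARF -/-, in which Myc is driven by the immunoglobulin heavy chain enhancer and the Arf tumor suppressor is deleted. 17 paclitaxel resistant (Pac) lines had been taken through cycles of 3 days in a dose meant to kill 85% of cells and 4 days of recovery, from 10000 cells per well, for 12 to 18 weeks. 12 control lines had gone through the same cycles with the solvent DMSO, and 1 library came from the parental line. RNA was sequenced as 3′-end libraries, 1 per line, and all lines descend from 1 cell line. The spread between lines is therefore that between wells carried separately and not between tumors. With 1 library per line it also holds differences between libraries, such as preparation and depth.

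The family decides whether the outer mitochondrial membrane stays closed. Bax, Bak1 and Bok encode effectors that can open it. Bid, Bcl2l11, Bmf, Bad and Bik encode BH3-only proteins, which carry only the short BH3 domain of the family and either bind the pro-survival proteins BCL2, BCL-XL and MCL1 or act on the effectors. Bnip3 and Bnip3l encode proteins of the outer mitochondrial membrane that recruit the autophagy machinery and are known targets of the hypoxia-inducible factors. In B cells this family sets how many cells survive selection, and Myc-driven lymphomas are a classic setting in which its members are lost or overruled. Paclitaxel stabilizes microtubules, arrests cells in mitosis and can kill through the mitochondrial route.

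The upstream sequences of 3 members are shown because the results turn on these genes. Bad was the member that passed the test, and Bnip3 and Bcl2l11 were the other members with an unadjusted p under 0.05. Each run is the 250 bases before a RefSeq transcript start (GRCm38.p6), read in the direction of the gene. Capitals mark CACGTG in Bnip3 and GTAAACA, a sequence bound by FOXO factors, in Bcl2l11. Bnip3 is at chr7:138909507-138909756 (minus strand), Bcl2l11 at chr2:128125788-128126037 (plus strand) and Bad at chr19:6941611-6941860 (plus strand).
Bnip3: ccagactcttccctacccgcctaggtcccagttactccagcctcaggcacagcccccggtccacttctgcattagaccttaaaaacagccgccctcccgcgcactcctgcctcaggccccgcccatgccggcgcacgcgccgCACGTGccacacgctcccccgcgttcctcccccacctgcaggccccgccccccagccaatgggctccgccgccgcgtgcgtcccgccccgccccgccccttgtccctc
Bcl2l11: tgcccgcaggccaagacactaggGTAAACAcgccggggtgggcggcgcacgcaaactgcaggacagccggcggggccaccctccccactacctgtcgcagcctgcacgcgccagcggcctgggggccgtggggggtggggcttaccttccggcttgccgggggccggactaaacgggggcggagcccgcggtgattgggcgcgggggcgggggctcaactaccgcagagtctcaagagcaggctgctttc
Bad: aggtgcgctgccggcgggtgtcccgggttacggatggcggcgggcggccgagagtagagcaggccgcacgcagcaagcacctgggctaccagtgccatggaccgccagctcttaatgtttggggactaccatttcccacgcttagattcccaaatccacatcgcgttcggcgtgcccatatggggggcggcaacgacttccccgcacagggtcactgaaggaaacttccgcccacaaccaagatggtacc
The table holds such a window for 8 of the members, and none for Bik and Bnip3l. CACGTG occurred in 6.021% of 32851 mouse windows of this length and once in the Bnip3 window. It reads the same on both strands and contains ACGTG, the core of the hypoxia-inducible factor motif, which was in 16.6% of windows on either strand. CACGTG also occurred once before Bax. GTAAACA, on either strand, was in 3.166% of windows and once in the Bcl2l11 window shown, but not in the other Bcl2l11 window. None of these letters were in the Bad window shown or in the other Bad window. A match describes the sequence and shows no binding.

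Total counts ran from 1053948 to 6739131 in the DMSO lines (median 4052241.5) and from 480919 to 6682169 in the Pac lines (median 3263532), and the parental library held 1851837. Levels are TMM-normalized CPM, in which a library's counts are scaled to a common total. The Arf locus, Cdkn2a, had 0 counts in all 30 libraries. All 8 B-cell markers had counts, and their summed level was 2517 to 5170 CPM in the DMSO lines and 1641 to 4498 in the Pac lines, with 0 of 8 past the test below and 3 lower at an unadjusted p under 0.05. T-cell markers summed to at most 21.4 CPM, with Cd3e and Cd4 at 0 throughout, and the myeloid list to at most 50.3 CPM, with Adgre1 and Elane at 0. The erythroid list reached 72.1 CPM in DMSO and 250 CPM in Pac lines, and the fibroblast list at most 0.521 CPM, with Col3a1 and Dcn at 0. On the first 2 principal components (23.7% and 11.5% of variance), the libraries labelled DMSO 12 and Pac H9 lay nearer to the other class, DMSO 11 was as far from its own class as from the other, and Pac C1 stood farthest from the rest. On the second component the parental library, at -31.9, lay with DMSO 1 to 11 (-32.2 to -10.8) and DMSO 12, at 21.9, did not. On the first component DMSO 11, Pac A6, C11, D4, D7, F10 and G9 lay at 43.6 to 89.0, apart from the other 23 libraries (-64.4 to 0.82), and the members with a mean of at least 10 CPM, and Bak1, are given with and without these 7, a choice made after the data were seen. The line names used here are therefore only the labels the libraries carry, and the value of the parental library is given as a single value with that doubt.

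At an adjusted p under 0.01 in the quasi-likelihood F test of edgeR, 1 of the 8 members that passed the filter on low counts was lower in the Pac lines (Bad), and 0 were higher. The background was 208 of 9445 genes called (2.2%), with 94 higher (0.995%) and 114 lower (1.21%). At an adjusted p under 0.05, Bad was again the 1 member called, where 3.92% of genes were higher and 3.63% lower. At an unadjusted p under 0.05, Bcl2l11 was higher, against 14.9% of all genes, and Bad and Bnip3 were lower, against 10.2%. The median log2 fold change was -0.11 over the 8 members, with 3 above 0 and 5 below, and 0.07 over all genes tested. Bik and Bok did not pass the filter. In these bulk libraries, fewer cells that express a gene and less of its RNA per cell cannot be told apart.

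**Figure D1:**
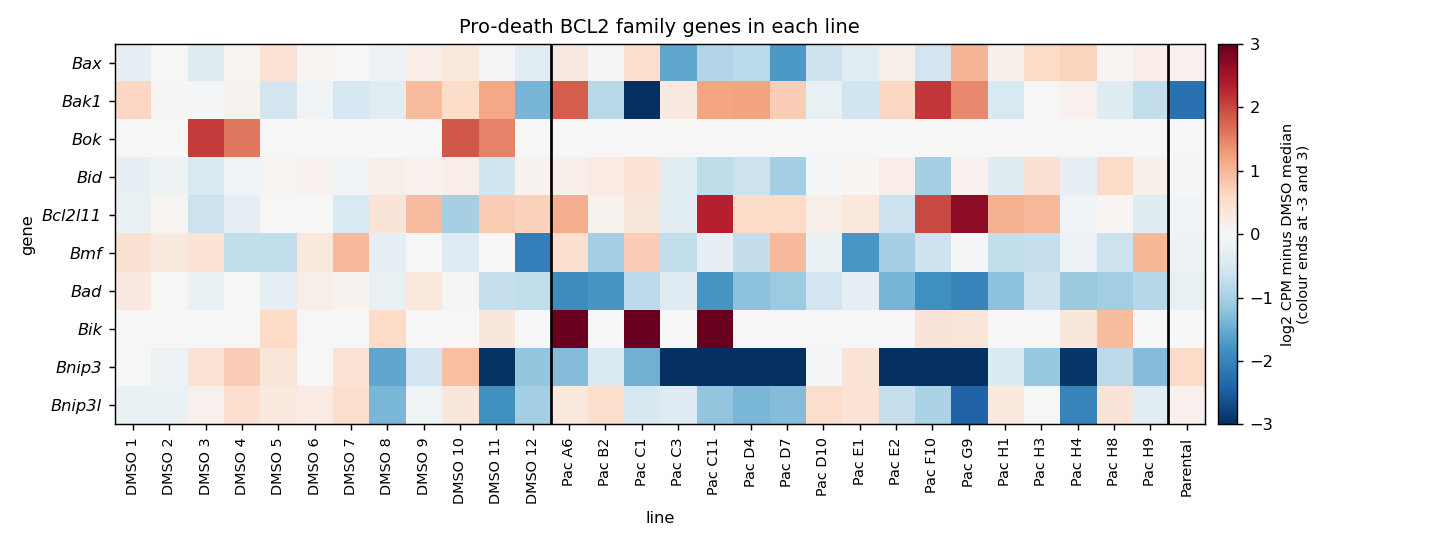
Each column is 1 line and each row 1 gene. Colour gives log2 CPM (prior count 2) minus the median of the 12 DMSO lines, ending at -3 and 3. Bad is at or below that median in all 17 Pac lines, Bnip3 is below it in 16, and Bik and Bok carry signal in few lines.

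**Figure D2:**
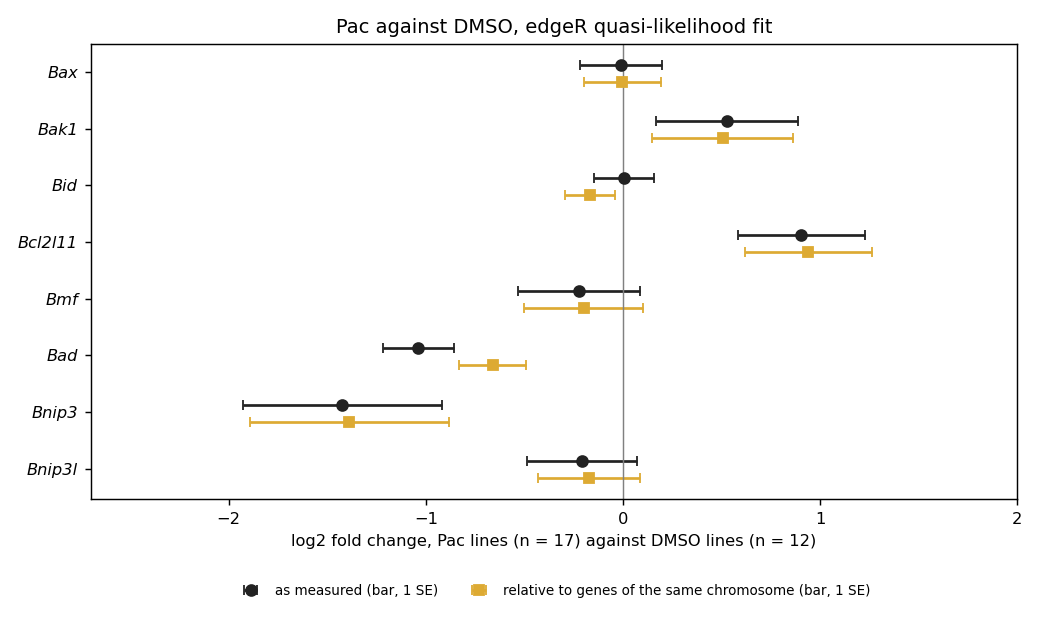
Log2 fold change of the 17 Pac lines against the 12 DMSO lines for the 8 members tested. Circles are values as measured, squares are from the fit relative to the genes of the same chromosome, and bars are 1 SE. Bad moves from -1.04 to -0.66 between the fits, and the other members move by less than 0.2.

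Bad encodes a BH3-only protein that binds BCL2 and BCL-XL and is silenced by phosphorylation and 14-3-3 binding. Its gene (ENSMUSG00000024959.14) lies on chromosome 19 of GRCm38, from 6941861 to 6951899 on the plus strand. The DMSO lines held 32.7 CPM at the lowest, 54.4 at the median and 68.1 at the highest, and the Pac lines 13.2, 24.9 and 46.0. The lowest DMSO values were those of DMSO 12 (32.7) and DMSO 11 (33.2), and the next was 45.2. All 17 Pac lines were below the DMSO median and 13 were below every DMSO line. The 4 that overlapped were Pac E1 (46.0), Pac C3 (41.7), Pac D10 (37.0) and Pac H3 (35.2). The means were 51.9 ± 11.4 (SD, n = 12) and 25.6 ± 9.99 (SD, n = 17).

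Bad was 2.05-fold lower in the Pac lines (95% interval 1.59 to 2.65). The log2 fold change was -1.04 (SE 0.18), with an adjusted p of 0.000582 in the edgeR test, the 35th lowest p among the genes tested. The two-sided rank-sum permutation test gave p = 1e-05, the smallest that its 100000 resamples allow. The parental library stood at 46.2 CPM. Without the libraries labelled DMSO 12 and Pac H9, the log2 fold change was -1.11 (SE 0.19, edgeR adjusted p = 0.000369), against 1.7% of genes lower, and 12 of the other 16 Pac lines were below every DMSO line. When every library after DMSO 11 was given the label of the next one (the last taking DMSO 12), an alternative chosen after the values were seen, it was -1.06 (adjusted p = 0.000177, same test). Without the 7 libraries far out on the first component it was -0.84 (SE 0.17, adjusted p = 0.00252, same test), where 1.21% of genes were lower. Of the 11 Pac lines left, 11 were below the DMSO median and 7 were below every DMSO line. Over 29 libraries r between log2 CPM of Bad and that component was -0.611. Thinned to 480919 counts per library the log2 fold change of Bad was -0.90 (SE 0.22, adjusted p = 0.0112, same test), which misses 0.01, where 1.28% of genes were lower.

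Genes of chromosome 19 were lower with Bad. Of 357 tested genes there, 37 were lower (10.4%) and 1 was higher, and the median log2 fold change of -0.34 was the lowest of 20 chromosomes. These 37 were among the 114 lower genes of all chromosomes. For each library, a chromosome's level was taken as the median, over its genes with a mean of at least 20 CPM, of log2 CPM minus the DMSO median, less the same over all genes. The level of chromosome 19, over 215 genes, was -0.52 to 0.20 in the DMSO lines and -0.59 to -0.06 in the Pac lines (median -0.47). It was below -0.3 in 12 of 17 Pac lines and in 1 DMSO library, DMSO 12. Of the other 5 Pac lines, Pac E1 (-0.12) and Pac C3 (-0.06) held the highest Bad values of the group, at 46.0 and 41.7 CPM. Pac H9 (-0.23) stood at 29.7 CPM of Bad, Pac D4 (-0.10) at 22.7 and Pac F10 (-0.24) at 14.7, the third lowest of the 30 libraries.

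The 38 tested genes within 1 Mb of Bad had a median log2 fold change of -0.39, with 34 below 0 and 3 past the test (Cox8a, Fkbp2 and Zfpl1), all lower. Pearson's r between log2 CPM of Bad and the level of chromosome 19 was 0.73 over 29 libraries, 0.52 within the 12 DMSO lines and 0.35 within the 17 Pac lines. The points share libraries and normalization. Relative to its chromosome, Bad was below 0 in 17 of 17 Pac lines (-1.60 to -0.05, median -0.68) and in 5 of 12 DMSO lines (-0.69 to 0.30). A fit with the chromosome level as an offset, chosen after the values were seen, gave a log2 fold change of -0.66 (SE 0.17, adjusted p = 0.0166, edgeR's quasi-likelihood test), past the threshold of 0.05 and not of 0.01. In that fit 61 genes of all chromosomes were lower (0.646%), 3 of them on chromosome 19.

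**Figure D3:**
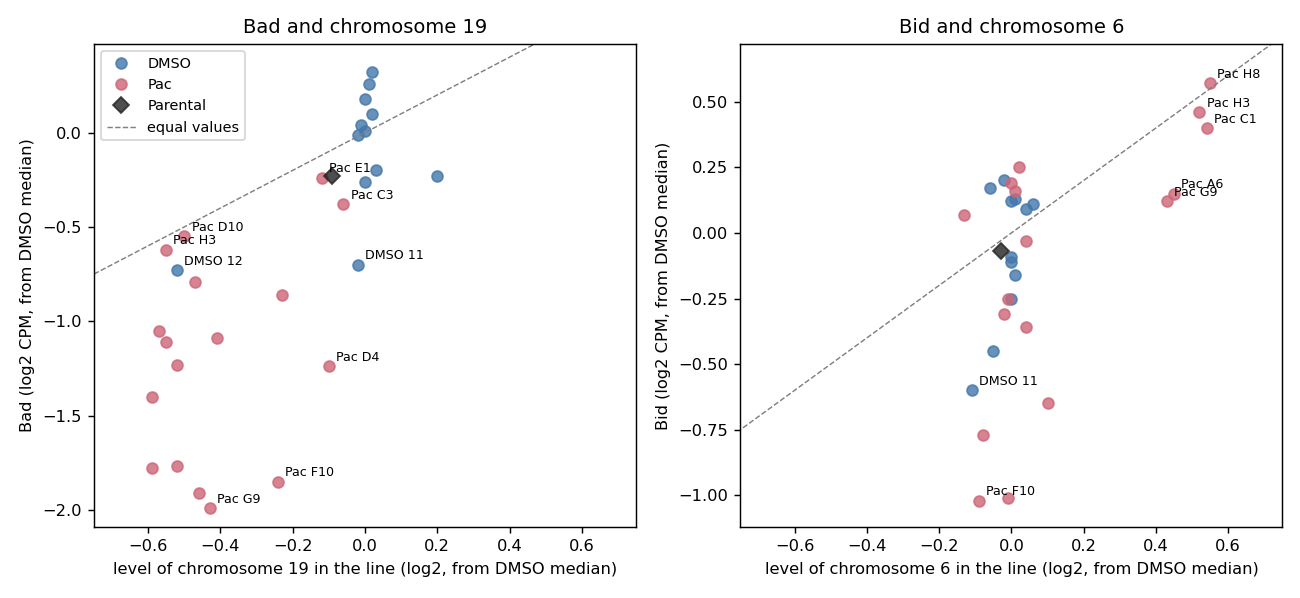
Log2 CPM of Bad (left) and Bid (right) minus the DMSO median, on the y axis, against the level of the gene's chromosome in the same line, on the x axis (log2). Points are lines, and the dashed line marks equal values. Most Pac lines lie near -0.5 for chromosome 19 with Bad below the dashed line, and 5 Pac lines lie at 0.43 to 0.55 for chromosome 6.

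The genes whose log2 CPM followed Bad most closely over the 29 libraries, among 6823 genes with a mean of at least 10 CPM, were Fkbp2 (r = 0.907), Cox8a (0.905) and Ndufb8 (0.880). All 3 lie on chromosome 19, Fkbp2 from 6977741 to 6980501, Cox8a from 7215153 to 7217616 and Ndufb8 from 44548572 to 44555440. Fkbp2 encodes a protein folding enzyme of the endoplasmic reticulum, and the other two encode subunits of the respiratory chain. Their log2 fold changes were -0.93, -1.04 and -0.73, each past the same test. Within the Pac lines r was 0.839, 0.792 and 0.781.

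**Figure D4:**
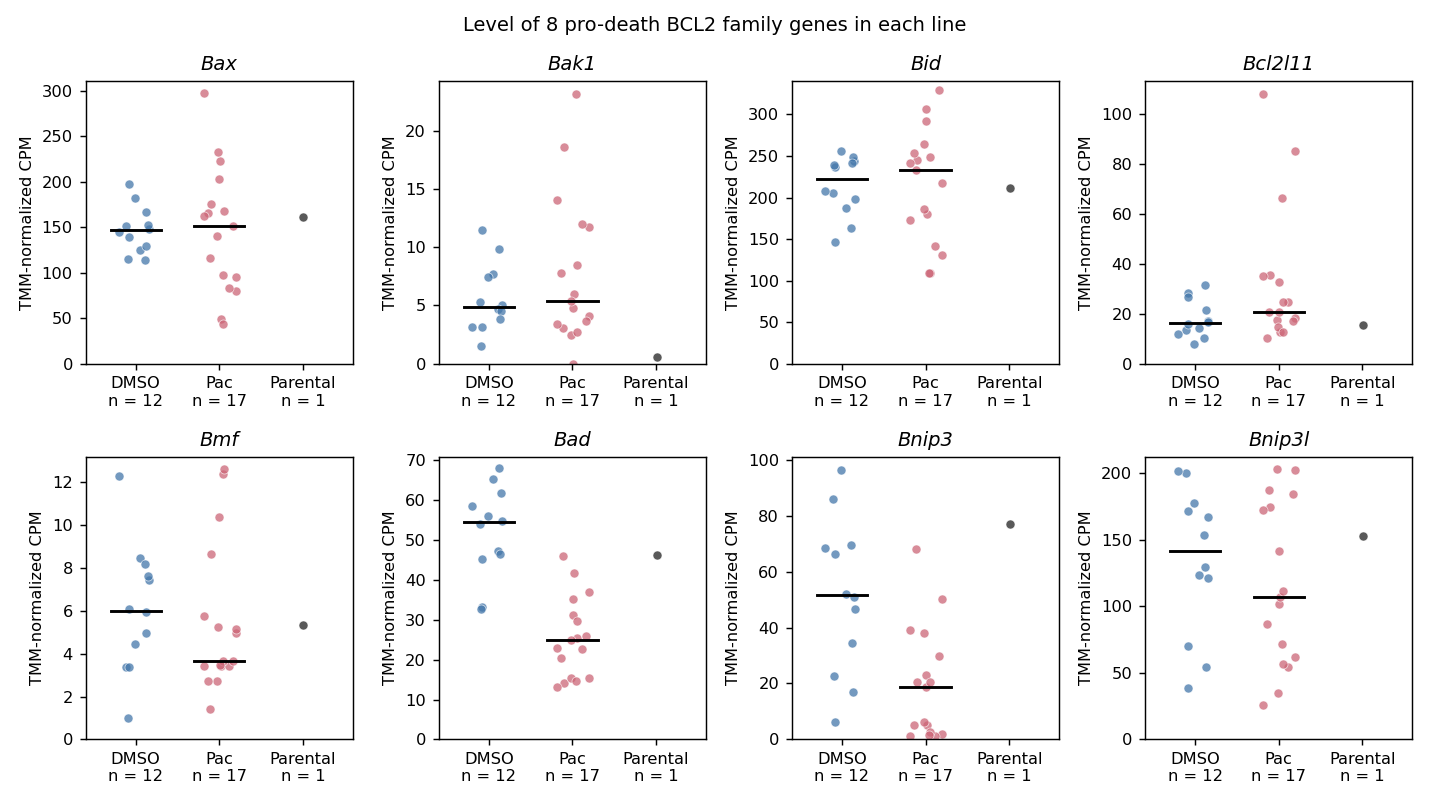
TMM-normalized CPM of 8 members, on linear axes from 0. Each point is 1 line, and bars mark group medians (DMSO n = 12, Pac n = 17, parental n = 1). Bad is lower in the Pac lines with 4 lines in the DMSO range, and the spread of Bax and Bcl2l11 is wider in the Pac lines than in the DMSO lines, for Bcl2l11 not without the 7 libraries named above.

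The effectors gave no call between Pac and DMSO lines. The paper reports that Bax expression differed between groups of its paclitaxel resistant lines formed by drug sensitivity. The labels do not give these groups, and they were not used here. Bax, which moves from the cytosol to mitochondria on activation, lies on chromosome 7 (45461697 to 45466898, minus strand). The DMSO lines ran from 114 CPM through a median of 147 to 197, and the Pac lines from 44.2 through 152 to 298. The groups had nearly the same median, but 6 Pac lines were below every DMSO line and 4 were above all of them. The low lines were Pac D7 (44.2), C3 (49.4), C11 (79.4), D4 (82.7), D10 (95.5) and F10 (97.6), and the high lines Pac G9 (298), H4 (232), H3 (223) and C1 (203). Pac D7, C11, D4, F10 and G9 of these were among the 7 libraries far out on the first component, and without the 7, 2 of 11 Pac lines were below and 3 above every DMSO line. The log2 fold change was -0.01 (SE 0.21, edgeR adjusted p = 0.981, 95% interval -0.43 to 0.41), and the permutation p was 0.982. Leaving out the 7 libraries gave a log2 fold change of 0.08 (SE 0.17, adjusted p = 0.84, same test). Parental cells held 161 CPM.

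The spread of Bax among lines differed more between the groups than that of most genes. The SD of log2 CPM was 0.245 in the DMSO lines and 0.765 in the Pac lines, a ratio of 3.12. Over 6823 genes the median ratio was 1.54, 88.8% of genes had a ratio above 1, and 2.46% had a ratio of at least that of Bax. The ratios of Bad (1.63), Bcl2l11 (1.63), Bnip3 (1.67), Bid (1.94) and Bnip3l (1.18) were each reached by 23.7% of genes or more. When the 7 libraries far out on the first component were left out, the ratio of Bax was 2.48, reached by 9.51% of genes, and that of Bcl2l11 was 0.94. These ratios describe the lines and were not tested.

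Bak1, the effector held at the mitochondrial membrane by MCL1 and BCL-XL, lies on chromosome 17 (27019810 to 27029009, minus strand). Values in DMSO lines were 1.51 CPM at the lowest, 4.86 at the median and 11.4 at the highest, and the Pac lines ran from 0 (Pac C1) through 5.37 to 23.1. Pac F10 (23.1), A6 (18.6), G9, D4 (12.0) and C11 (11.7) were above every DMSO line. The log2 fold change of 0.53 (SE 0.36, edgeR adjusted p = 0.365) was within the spread of the lines. These 5 Pac lines, and DMSO 11 as the highest DMSO line, were among the 7 libraries far out on the first component, and r between log2 CPM of Bak1 and that component was 0.786 over 29 libraries. Without the 7, 0 of 11 Pac lines were above every DMSO line and the log2 fold change was -0.24 (SE 0.30, adjusted p = 0.693, same test), the opposite sign. Pac C1 was the smallest library, and there the value of 3 counts was 6.23 CPM, so 0 counts does not set it apart from the DMSO lines below that value. In the Pac lines log2 CPM of Bak1 and log10 of total counts had an r of 0.661 (n = 17). With depth as a covariate the log2 fold change was 0.63 (edgeR adjusted p = 0.231), and in thinned counts Bak1 did not pass the filter. Ggnbp1, which covers the 3′ end of Bak1 on the opposite strand, had 601 and 15 counts at its 2 identifiers over all libraries, and whether counting used the strand is not given in the sources used here.

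Bok, an effector that can act without Bax and Bak1, had 26 counts in all. They came from 4 DMSO lines, with 9 counts in DMSO 3, 7 in DMSO 4, 7 in DMSO 11 and 3 in DMSO 10, at most 1.84 CPM. All 17 Pac libraries and the parental library had 0 counts. The value of 3 counts ran from 0.461 to 6.23 CPM in the Pac libraries, and no fold is given. In small libraries, such as Pac C1 (6.23) and Pac D10 (3.08), it was above every DMSO value. In deeper ones, such as Pac H4 (0.461), G9 (0.478) and F10 (0.525), it was below the lowest nonzero DMSO value (1.01 in DMSO 11). 8 DMSO libraries also had 0 counts. The rank-sum permutation p was 0.021, unadjusted.

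Bid, which is cut by caspase-8 and links death receptors to mitochondria, lies on chromosome 6 (120891930 to 120916853, minus strand). The DMSO lines ran from 147 CPM through 223 to 256 and the Pac lines from 109 through 234 to 329. The medians were close, and 4 Pac lines were below and 4 above every DMSO line. The log2 fold change was 0.00 (SE 0.15, 95% interval -0.31 to 0.31, edgeR adjusted p = 0.992), and its sign changed between settings. The 4 lines below were Pac C11, D4, D7 and F10, all among the 7 libraries far out on the first component, and r between log2 CPM of Bid and that component was -0.69 over 29 libraries. Without the 7, 0 of 11 Pac lines were below and 4 above every DMSO line, with a log2 fold change of 0.15 (SE 0.11, adjusted p = 0.47, same test). The lines above were Pac H8 (329), H3 (307), C1 (293) and B2 (264).

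The level of chromosome 6 was above 0.3 in 5 Pac lines, Pac H8 (0.55), C1 (0.54), H3 (0.52), A6 (0.45) and G9 (0.43), and in 0 DMSO lines. Bid stood at 0.57, 0.40, 0.46, 0.15 and 0.12 above the DMSO median (log2) in the same order. Over 29 libraries r between Bid and the level of chromosome 6 was 0.552, and within the Pac lines 0.639. Relative to its chromosome, Bid was below 0 in 12 of 17 Pac lines and in 6 of 12 DMSO lines, and the log2 fold change was -0.17 (SE 0.13, adjusted p = 0.435, edgeR). The lowest values were those of Pac F10 (109) and Pac D7 (110), whose chromosome levels were -0.09 and -0.01. Bcl2l13 overlaps the 3′ end of Bid on the opposite strand and had 2819 counts where Bid had 21501. Bax and Bid varied together, with an r of 0.678 over the 17 Pac lines and 0.447 over the 12 DMSO lines.

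Bcl2l11 encodes BIM, a BH3-only protein that binds every pro-survival member and, in one form, the dynein light chain of the microtubule motor. Its gene lies on chromosome 2 (128126038 to 128162547, plus strand), and its upstream sequence is shown above with the GTAAACA match in capitals. Among DMSO lines it ran from 7.94 CPM through 16.4 to 31.6 and among Pac lines from 10.3 through 20.8 to 108. The groups overlapped in 11 of 17 Pac lines, and 6 were above every DMSO line. These were Pac G9 (108), C11 (85.3), F10 (66.5), A6 (35.6), H1 (35.0) and H3 (32.6). The highest 4 of these were among the 7 libraries far out on the first component. Without the 7, the Pac lines ran from 10.3 CPM through 17.7 to 35.0 and the DMSO lines from 7.94 through 16.1 to 31.6, and the log2 fold change was 0.22 (SE 0.23, adjusted p = 0.644, edgeR).

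The log2 fold change of Bcl2l11 was 0.90 (SE 0.32, 95% interval 0.25 to 1.56), with an adjusted p of 0.0778 in the edgeR test and a permutation p of 0.0802. It passed neither 0.01 nor 0.05. Leaving out 1 library at a time gave adjusted p values from 0.0419 (without DMSO 11) to 0.168 (without Pac G9). Without DMSO 12 and Pac H9 the log2 fold change was 0.99 (adjusted p = 0.0503, edgeR), and with the labels moved by 1 library 1.01 (adjusted p = 0.0323, same test). Relative to chromosome 2 it was 0.94. The parental value was 15.4 CPM.

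The genes most like Bcl2l11 were Trim56 (r = 0.779), Pmaip1 (0.765) and Ampd2 (0.762), on chromosomes 5, 18 and 3. By Spearman's rho (0.678, 0.633 and 0.714) 0 of these were among the 3 most like it, and within the 12 DMSO lines r of Trim56 was 0.489. Trim56 encodes a ubiquitin ligase of innate immunity and Ampd2 an enzyme of purine metabolism. Pmaip1 encodes NOXA, a BH3-only protein that binds MCL1. It is no member of the set described, but it was the 1 gene of the surrounding lists that passed the test. In the DMSO lines Pmaip1 ran from 1.99 CPM through 13.9 to 23.7 and in the Pac lines from 7.30 through 43.9 to 508, with 7.70 in the parental library. Its log2 fold change was 2.57 (SE 0.53, edgeR adjusted p = 0.00267), 5.94-fold higher in the Pac lines. The highest value was that of Pac G9, and without that library it was 3.57-fold higher (log2 fold change 1.84, SE 0.38, adjusted p = 0.0037, same test). Without the 7 libraries far out on the first component it was 3.05-fold higher (adjusted p = 0.00892, same test).

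Bmf, a BH3-only protein tied to the actin motor, lies on chromosome 2 (118528757 to 118549687, minus strand). Values ran from 1.01 CPM through 6.00 to 12.3 in the DMSO lines and from 1.40 through 3.67 to 12.6 in the Pac lines. The ranges coincided, and the log2 fold change was -0.22 (SE 0.31, 95% interval -0.85 to 0.40, edgeR adjusted p = 0.679). The highest and lowest libraries included both libraries with doubtful labels, Pac H9 (12.6) and DMSO 12 (1.01), and without them the log2 fold change was -0.45 (adjusted p = 0.321, same test).

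Bik, a BH3-only protein of the endoplasmic reticulum, had 70 counts in 10 libraries. 9 DMSO libraries had 0 counts and 3 had 1 count. Of the Pac libraries, 10 had 0 and 4 had 1, and the other 3 were Pac C11 with 42 counts (8.35 CPM), Pac A6 with 12 (3.85 CPM) and Pac C1 with 9 (18.7 CPM). The signal was therefore held by 3 lines, and the permutation p of the groups was 0.28.

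Bnip3 (ENSMUSG00000078566.8) lies on chromosome 7 (138890836 to 138909519, minus strand), with the CACGTG match in its upstream sequence. The DMSO lines ran from 6.08 CPM (DMSO 11) through 51.5 to 96.3 and the Pac lines from 1.07 (Pac D4) through 18.7 to 68.2 (Pac E1). 16 of 17 Pac lines were below the DMSO median, and Pac D4 (1.07), G9 (1.12), F10 (1.40), C11 (1.99), D7 (2.53), C3 (5.11) and E2 (5.25) were below every DMSO line. In the DMSO group DMSO 11 (6.08), DMSO 8 (16.9) and DMSO 12 (22.6) were low, and the other 9 held at least 34.5 CPM. The lowest 5 Pac lines and DMSO 11 were among the 7 libraries far out on the first component, with an r of -0.718 between that component and log2 CPM of Bnip3 over 29 libraries. The parental library stood at 77.0 CPM.

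The log2 fold change of Bnip3 was -1.42 (SE 0.50, 95% interval -2.45 to -0.40), 2.68-fold lower, with an adjusted p of 0.0757 in the edgeR test. The permutation test gave an unadjusted p of 0.00192. The adjusted p ran from 0.0303 (without Pac E1) to 0.134 (without DMSO 10) when single libraries were left out, and was 0.072 without DMSO 12 and Pac H9. With the labels moved by 1 library the log2 fold change was -1.53 (adjusted p = 0.0429, edgeR). Without the 7 libraries it was -0.99 (SE 0.37, adjusted p = 0.0931, same test), and 10 of 11 Pac lines were below the DMSO median. No setting brought the adjusted p under 0.01. The SD of log2 CPM was 1.12 in the DMSO lines and 1.86 in the Pac lines, the widest of the 6 members with a mean of at least 10 CPM.

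Bnip3l, the relative that also clears mitochondria from maturing red cells, lies on chromosome 14 (66985239 to 67008877, minus strand). The DMSO lines ran from 38.7 CPM through 141 to 202 and the Pac lines from 25.8 through 107 to 203. The ranges nearly coincided, and the log2 fold change was -0.21 (SE 0.28, 95% interval -0.78 to 0.36, edgeR adjusted p = 0.666). Without the 7 libraries far out on the first component it was -0.03 (SE 0.24, adjusted p = 0.966, same test). The chromosome level of 14 was -0.74 in DMSO 12, where Bnip3l stood at 69.8 CPM. Bnip3 and Bnip3l followed each other, with an r of 0.961 over the 12 DMSO lines and 0.864 over the 17 Pac lines. Pac G9 was the lowest in Bnip3l (25.8) and next to lowest in Bnip3, while DMSO 11 was the lowest DMSO line in both.

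**Figure D5:**
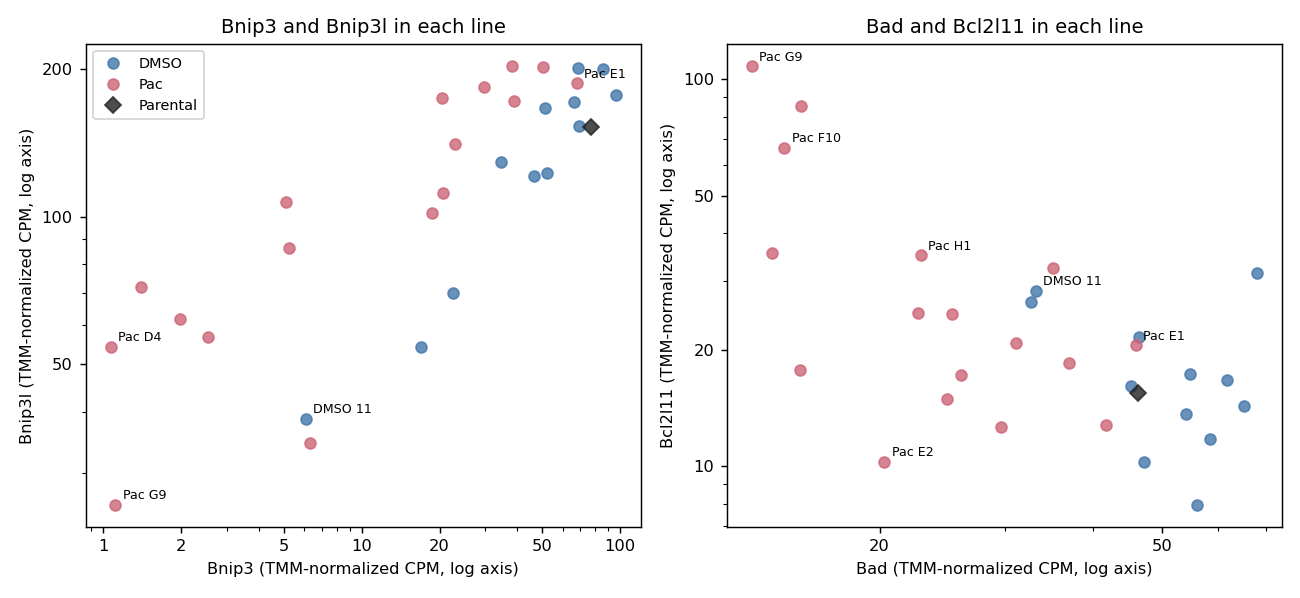
CPM of Bnip3l against Bnip3 (left) and of Bcl2l11 against Bad (right) in each line, on log axes. Points are lines, coloured by group. Bnip3 and Bnip3l vary together in both groups. Pac G9, C11, F10 and A6 are the lines highest in Bcl2l11 and are among the lowest in Bad. They are among the 7 libraries far out on the first component. Pac H1 and H3, next in Bcl2l11, hold 22.9 and 35.2 CPM of Bad.

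The genes most like Bnip3 were Higd1a (r = 0.941), Pkm (0.909) and Fam162a (0.909), with r of 0.936, 0.896 and 0.893 within the Pac lines. Higd1a and Fam162a encode mitochondrial proteins induced in hypoxia and Pkm the last enzyme of glycolysis. Their log2 fold changes were -0.74 (SE 0.25), -0.50 (SE 0.25) and -0.64 (SE 0.30), and 0 of the 3 passed the edgeR test. Bcl2l11 ran against Bnip3 (r = -0.790 in DMSO, -0.452 in Pac) and against Bad (-0.362 and -0.601). Over 29 libraries r with the first component was 0.678 for Bcl2l11, -0.718 for Bnip3 and -0.611 for Bad. These pairs were not compared without the 7 libraries far out on that component. All pairs share libraries, depth and normalization.

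Among the surrounding lists, 0 genes passed the edgeR test in the apoptosome and caspase list (16 tested, median log2 fold change -0.03), the mitochondrial gate and fission list (12 tested, 0.02), the mitophagy partners (15 tested, 0.17), the hypoxia targets (18 tested, -0.07), the p53 targets (8 tested, 0.25) and the regulators of the members (19 tested, 0.42). At an unadjusted p under 0.05, against 14.9% of all genes higher and 10.2% lower, the regulators had 6 higher and 0 lower, the mitochondrial gate list 3 higher and 1 lower, the mitophagy partners 1 higher and 3 lower, the caspase list 0 higher and 2 lower, the hypoxia targets 0 higher and 1 lower, and the p53 targets 0 either way. A list of apoptosis genes that the study names and that are no members had 12 tested and 0 called, with a median of 0.16, and at an unadjusted p under 0.05 had 0 higher and 1 lower. Only 2 of 8 pro-survival genes passed the filter. Mcl1, the short-lived guard of Bak1, stood at 71.3 ± 25.5 CPM (SD, n = 12) in DMSO and 105 ± 88.4 (SD, n = 17) in Pac lines, a log2 fold change of 0.57 (SE 0.30, edgeR adjusted p = 0.231). Its medians were 63.6 and 62.1 CPM, and its highest Pac value was 380. The 8 pro-survival genes summed to 108 (Pac G9) to 389.5 CPM (Pac F10) in the 7 libraries far out on the first component. In the other 23 libraries the sum was at most 93.6 CPM (DMSO 1). Bcl2 stood at 2.79 ± 1.45 and 4.07 ± 2.66 CPM, a log2 fold change of 0.59 (SE 0.36, adjusted p = 0.308, same test). Bcl2l1, which encodes BCL-XL, was under the filter, at 1.31 ± 0.721 and 1.39 ± 1.96 CPM. Of the other BH3-only genes, Bbc3 had a log2 fold change of 0.64 (SE 0.45, adjusted p = 0.376, same test), and Hrk had 1 count over all libraries.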

How the data were processed

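RNA-seq of 30 lines was analysed from the table of counts per gene that the authors deposited. Per the labels and the study's methods, total RNA was made into 3′-end libraries, reads were aligned to GRCm38 with STAR 2.5.1b, and whole-number counts were taken from STAR without normalization or filter. Whether molecular identifiers were collapsed is not given in the sources used here, so counts may not be independent molecules. Groups are those of the labels. The subpool of each library, a possible batch, was not given, and its effect and that of the group cannot be told apart. The members, lists and tests were chosen with earlier results of these data known.

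Counts of 12 DMSO and 17 Pac libraries were fitted with edgeR 4.0.16 in R 4.3.3 (filterByExpr, TMM factors, quasi-likelihood F test, Benjamini-Hochberg adjustment over 9445 genes, threshold 0.01). The parental library stayed outside the fit. CPM used TMM factors over all 30 libraries, and log2 CPM a prior count of 2. Rank-sum permutation tests (100000 resamples, two-sided, unadjusted) used Python 3.11.15 with numpy 2.4.6. The fit was tested on simulated data for this comparison: of 185 tested genes given a 4-fold change it called 178, and 3 calls among 9236 genes were false. Genes were drawn independently there, with no chromosome shifts or doubtful labels. These rates therefore need not hold in the real libraries or for smaller changes. Symbols and positions came from GENCODE M21 (GRCm38), found for 55141 genes. Promoters came from RefSeq. Named genes were all members, genes of each list past the threshold (at most 3 each way), Bcl2, Bcl2l1, Mcl1, Bbc3, Pmaip1 and Hrk, and the 3 genes with the highest Pearson correlation to each of the 3 members with the lowest p. Cox8a, Fkbp2 and Zfpl1 as neighbours of Bad, and the chromosome levels, were chosen after their values were seen. As alternatives the fit was repeated with RLE factors, with no filter and a stricter one, at 0.05, without doubtful or single libraries, on thinned counts, with depth as a covariate, by likelihood ratio and in DESeq2 1.42.0. No libraries agreed within sampling noise (chi-square of at least 6.2 per gene in every pair).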

Additional observations from a re-analysis of the deposited data

How the results depend on the processing

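Bad stayed lower under all alternatives run. It missed 0.01 when libraries were thinned (0 members lower) and relative to its chromosome (0 members lower), and passed in 29 of 29 fits without 1 library (adjusted p 0.000181 to 0.00153), which all left 1 member lower and 0 higher. Over all genes, 94 were higher and 114 lower. The counts became 232 and 216 with the likelihood ratio test, 267 and 224 with DESeq2, 370 and 343 at 0.05, and 44 and 66 after thinning. The number higher was 158 without DMSO 12 and Pac H9, 171 without Pac C3 and DMSO 11, 181 without Pac C1 and DMSO 11, and 157 with depth as a covariate. With labels moved by 1 library the counts were 175 and 198, and 61 were lower relative to chromosomes. Without 1 library the counts ran from 57 (DMSO 4) to 159 (DMSO 11) higher and from 77 to 147 lower. Moved labels, chromosome levels and the fit without Pac C1 were chosen after the data were seen. Without the 7 libraries far out on the first component, also chosen then, Bax changed sign to 0.0781 and Bak1 to -0.243, and 132 genes were higher and 108 lower. Bax changed sign to 0.041 without Pac C3 and DMSO 11, and ran from -0.113 to 0.048 without single libraries. Bid changed sign to -0.0163 without a filter, -0.0026 with a stricter one, -0.0013 without DMSO 12 and Pac H9, -0.023 without Pac C3 and DMSO 11, -0.0688 without Pac C1 and DMSO 11, -0.0065 thinned, -0.0737 with the covariate and -0.167 relative to its chromosome, and ran from -0.045 to 0.0422 without single libraries. Of the 9 genes most like a member, 5 were also among the 3 highest by Spearman's rho. The causes were not tested. No paired analysis was possible because the replicate numbers of the labels only name separate lines. At the smallest total, genes such as Bik, Bok and Bak1 lie near the value of 3 counts.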

Other observations

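Chromosome 9 was next to chromosome 19 in the number of lower genes, with 22 of 524 tested genes lower and 0 higher (median log2 fold change -0.17). No member lies on it, but Higd1a and Pkm, whose levels followed Bnip3, do. Chromosome 5 had the highest median (0.24), with 12 of 618 genes higher and 2 lower.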
